A study of Homo sapiens with 12 samples.

Results

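The interferon response genes described here are 34 genes that type I interferon is known to induce, listed by symbol and found by Ensembl identifier among the 20595 rows of a gene count table. Of the 34, 30 had a row. IFIT5, OAS1, DDX58 (the RNA sensor RIG-I) and USP18 were not analysed here. The table covers A549 and H1792, established human lung adenocarcinoma lines, exposed for 48 h to the solvent DMSO or to 1 μM RG7112, a small molecule that binds MDM2 and blocks its interaction with p53. With 3 samples in each of the 4 groups, 12 samples entered the comparisons. The study describes both lines as carrying an amplified MDM2 gene, and in most places it gives p53 as WT in A549 and as mutant in H1792, although some passages, on the sequencing among them, differ. Each p53 status is thus represented by a single cell line, so that cell line and p53 status cannot be told apart. No interferon, virus or immune cell was added to any group. The sample labels and the study's methods give 1 μM as the dose, whereas the column names of the table carry a lower one.

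Interferons are secreted proteins that bind receptors on the cell surface and activate the kinases JAK1 and TYK2. These phosphorylate STAT2, which joins IRF9 in the complex ISGF3, and the complex binds a DNA element, the interferon-stimulated response element, in front of its target genes. Epithelial cells of the lung use this programme against viruses, and its products sense viral RNA, degrade it or block its translation, while some of them (STAT2, IRF9, IRF7) feed back on the signal itself.

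The element was searched for on both strands as GAAA, any 2 bases and GAAA again (TTTC, any 2 bases and TTTC when read on the other strand), with overlapping matches counted, in RefSeq promoter windows of 300 bases (GRCh38.p14, 250 bases before and 50 after each start). Of the 30 genes with a row, 25 had a window, and 18 of these (72%) held at least 1 match, against 3.57% of 35116 windows and 4.38% of 27305 genes in the promoter table. Of the 6 genes whose response to RG7112 differed between the cell lines, ISG15, PARP14 and IFIH1 held a match, whereas STAT2, IRF9 and IFI35 held none in this window. A match is a sequence description and no measured binding site. The matches of ISG15, PARP14 and IFIH1 are shown because only these of the 6 genes held one. Each stretch runs 5′ to 3′ along the gene's strand, with the matching letters in capitals. The ISG15 stretch (chr1:1013377-1013406, plus strand) holds 2 overlapping matches, the PARP14 stretch (chr3:122680800-122680829, plus strand) holds 1, and the IFIH1 stretches (chr2:162318821-162318850 and chr2:162318686-162318715, minus strand) hold 3 in all. The windows use RefSeq starts, whereas the gene positions given below are GENCODE v29 spans. For ISG15 and PARP14 those spans begin upstream of the stretch.
ISG15: gcctcggGAAAGGGAAACCGAAActgaagc
PARP14: tccaggaaacGAAAGCGAAAgagtcaaagt
IFIH1, distal stretch: aattcgcTTTCCTTTTCTGTTTCccgcggt
IFIH1, proximal stretch: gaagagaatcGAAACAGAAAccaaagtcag

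The samples held between 2011916 and 6218825 estimated counts. A gene with 3 counts in a sample had 0.464 to 1.43 CPM (counts scaled to library size and normalised by TMM over all 12 samples), and this floor covers counting error only. The labels do not say whether replicates were separate cultures, so that p-values measure the spread between these samples, which may be technical. In A549, replicate 3 of both treatments stood apart from the other samples on the second principal component (25.7% of the variance, with scores of -47.2 and -39 against 9.06 to 38.6). CDKN1A, a p53 target used as a check of the treatment, was at 24.1 to 44.8 CPM with DMSO and 189 to 940 with RG7112 in A549, and at 2.53 to 14.4 and 3.72 to 10.1 in H1792. MDM2 itself was at 3.11 to 12.9 and 58.5 to 75.9 CPM in A549, and at 6.33 to 15.2 and 8.5 to 11.4 in H1792. Of the epithelial markers, KRT7, KRT8 and KRT18 had at least 180 CPM in every sample (KRT8 at 10500 to 15800 CPM in A549 and 579 to 1040 in H1792). KRT19 was at 1060 to 3460 CPM in A549 and 30.4 to 58.9 in H1792, and CDH1 at 1.74 to 21.9 and 0 to 1.05. EPCAM stayed at or below 6.21 CPM. Of the lung adenocarcinoma markers, NKX2-1 was at 0 to 0.155 CPM in every sample, SFTPB had at most 0.435 and NAPSA at most 5.69. Of the leukocyte markers, PTPRC, CD3E and LYZ were at 0 to 0.17 CPM, while CD14 had 13.3 to 23.7 CPM in A549. Of the fibroblast markers, COL1A1 had 188 to 295 CPM in H1792, and COL3A1, DCN and PDGFRB had at most 6.27 CPM in any sample.

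A gene was called detected in a cell line if every sample of at least 1 treatment had more than 3 counts. By this rule 12 of the 30 genes were detected in A549 and 17 in H1792, of which 11 were shared. With at least 1 CPM as the rule, 13 and 17 were detected. Both lines had the regulators STAT2 and IRF9, the RNA sensor IFIH1, and ISG15, HERC6, MX1, ISG20, PARP9, PARP14, IFI6 and IFI35. By the rule on counts, OASL was detected in A549 only, and IRF7, IFIT2, IFIT3, MX2, SAMD9L and IFI44 in H1792 only. IFIT2 and IRF7 nevertheless had 80 and 96 counts over the A549 samples, spread unevenly, against 66 and 231 in H1792. The remaining 12 were detected in neither line: DDX60, IFIT1, OAS2, OAS3, HERC5, RSAD2, CMPK2, BST2, SAMD9, IFI27, IFI44L and XAF1. Among these, DDX60 had no count in any sample and IFIT1 reached 3.52 CPM in its highest sample. In samples without a count, absence cannot be told from a low level at this depth. IFIT1 and OAS3 had counts in every A549 sample (2 to 15 and 1 to 9), so that they were low there by these estimates and not absent.

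Levels between genes were compared per kb of exon. In A549 with DMSO, IFI35 had the highest mean level of the 30 genes, at 41.2 CPM per kb, followed by ISG15 (18.6), IFI6 (9.42) and STAT2 (6.4). In H1792 with DMSO the order differed, with ISG15 at 125 CPM per kb, IFI35 at 15.8, IFI6 at 7.21 and IRF7 at 5.71. Summed over the 30 genes, the level was 264 ± 48.6 CPM in A549 with DMSO and 396 ± 37.1 with RG7112 (SD, n = 3). In H1792 the sum was 321 ± 24.2 with DMSO and 192 ± 21.9 with RG7112. The sums of the treatments did not overlap in either line, being higher with RG7112 in A549 (363 to 436 against 222 to 317 CPM) and lower in H1792 (178 to 217 against 294 to 339 CPM). Without ISG15 they were 327 to 390 against 206 to 296 CPM in A549, and 123 to 147 against 191 to 224 in H1792. Such sums weigh the most abundant genes most and do not show a shift of all 30. In bulk RNA, fewer expressing cells and less RNA per cell cannot be told apart.

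**Figure D1:**
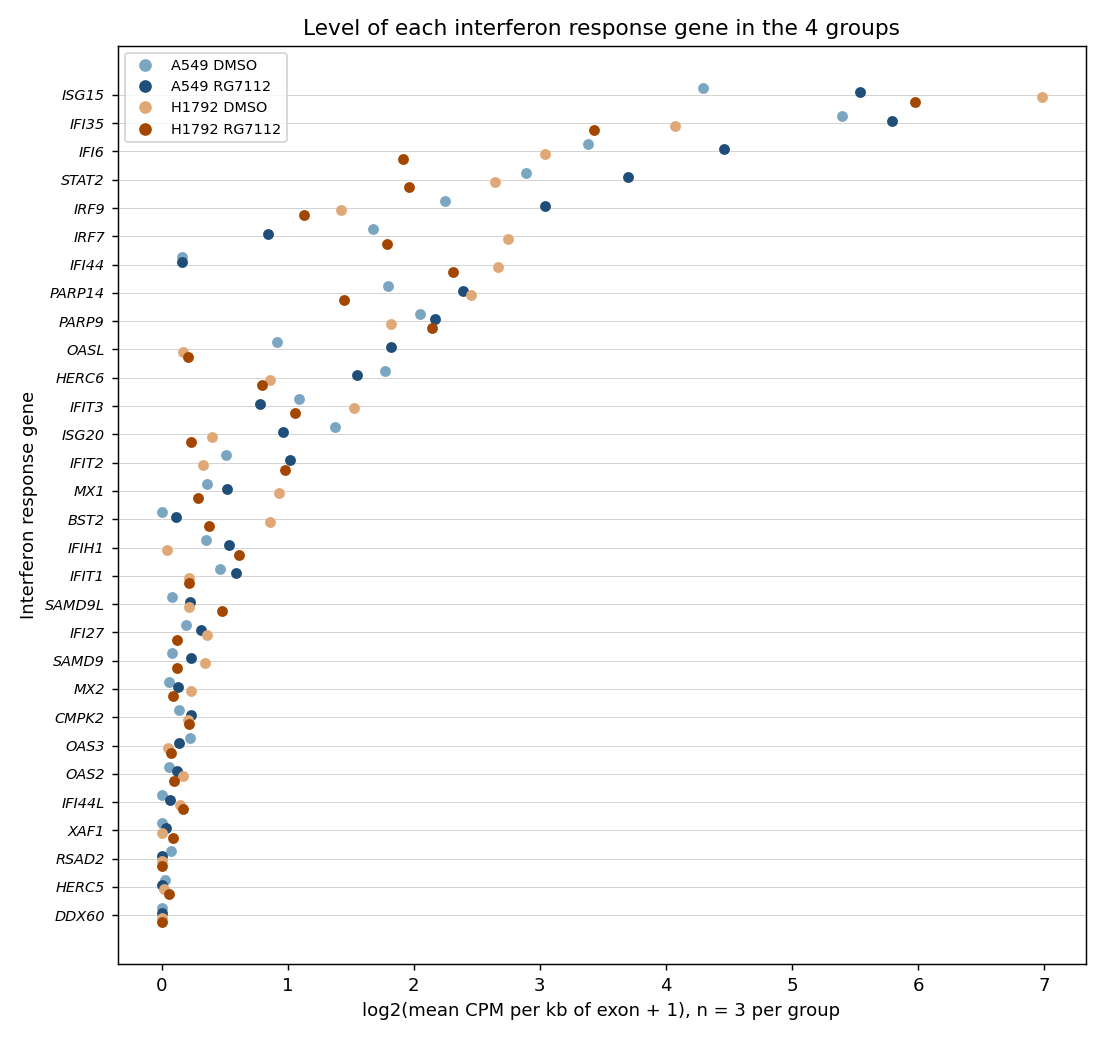
Mean level of the 30 interferon response genes with a row, as log2 of mean CPM per kb of exon plus 1 (horizontal axis), with 1 point per group (n = 3 samples each). ISG15 and IFI35 lie at the top, and the genes at the bottom, DDX60 last, lie near 0 in all 4 groups.

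The first question was which of the genes changed with RG7112 in A549. Of the 12 tested there, ISG15 alone was called upregulated and none was called downregulated, where a call needed both an adjusted p under 0.05 and a log2 fold change beyond 1 in size (edgeR quasi-likelihood test, Benjamini-Hochberg adjustment over 10739 genes). Of all genes tested, 3.18% were called upregulated and 3.01% downregulated. On the log2 scale 10 of the 12 lay above 0, with a median of 0.84, against 49.1% of all genes and a median of -0.0149. The treatments did not overlap in CPM for 6 genes that were higher with RG7112 (STAT2, IRF9, OASL, ISG15, IFI6 and IFI35) and for 1 that was lower (ISG20), while 16.2% of all genes were non-overlapping in each direction. The 6 higher genes had unadjusted p-values under 0.05, no gene was lower at that level, and DESeq2 also called none downregulated.

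In H1792 the picture was different. Of 13 genes tested, IFIH1 was called upregulated and PARP14 downregulated (edgeR, adjusted over 9914 genes, of which 10.3% were called upregulated and 4.34% downregulated). IFIH1 passed the low-count filter through its RG7112 samples alone. Without the fold change threshold, ISG15, STAT2 and IFI35 were also lower, which made 4 genes lower and 1 higher, against 16.5% and 17.7% of all genes. On the log2 scale 10 of the 13 lay below 0, with a median of -0.619, against 49.5% of all genes and a median of 0.0096. Scaled by library size alone, which moved the median of all genes to 0.269, 9 of the 13 lay below 0 and their median was -0.359. Among the 13 tested genes, 6 were lower with RG7112 without overlap between the treatments (STAT2, IRF9, IRF7, ISG15, PARP14 and IFI35). A further 2 were higher without overlap (IFIH1 and PARP9). Of all genes, 28.5% and 24.9% were non-overlapping in these directions. Scaled by library size alone, IRF9 and IRF7 overlapped, which left 4 lower genes and the same 2 higher ones. Among the untested genes, MX2 was lower and SAMD9L higher without overlap after TMM, both at few counts.

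The difference between the responses, that is the A549 log2 fold change less the H1792 one, was the interaction term of a fit to all 12 samples, with no threshold on its size. It passed an adjusted p of 0.05 for 6 of 16 genes tested. It was above 0 for ISG15, STAT2, IFI35, IRF9 and PARP14, and below 0 for IFIH1. Of all 11666 genes, 10.4% and 11.4% passed in these directions. Among the 9 genes tested in both lines were ISG15, STAT2, IRF9, PARP14 and IFI35, each with a positive log2 fold change in A549 and a negative one in H1792, although ISG15 was the only one of the 5 to pass the test within A549. IFI6 had the same signs and passed in neither line nor in the interaction. The share of all genes with these opposite signs was not determined.

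**Figure D2:**
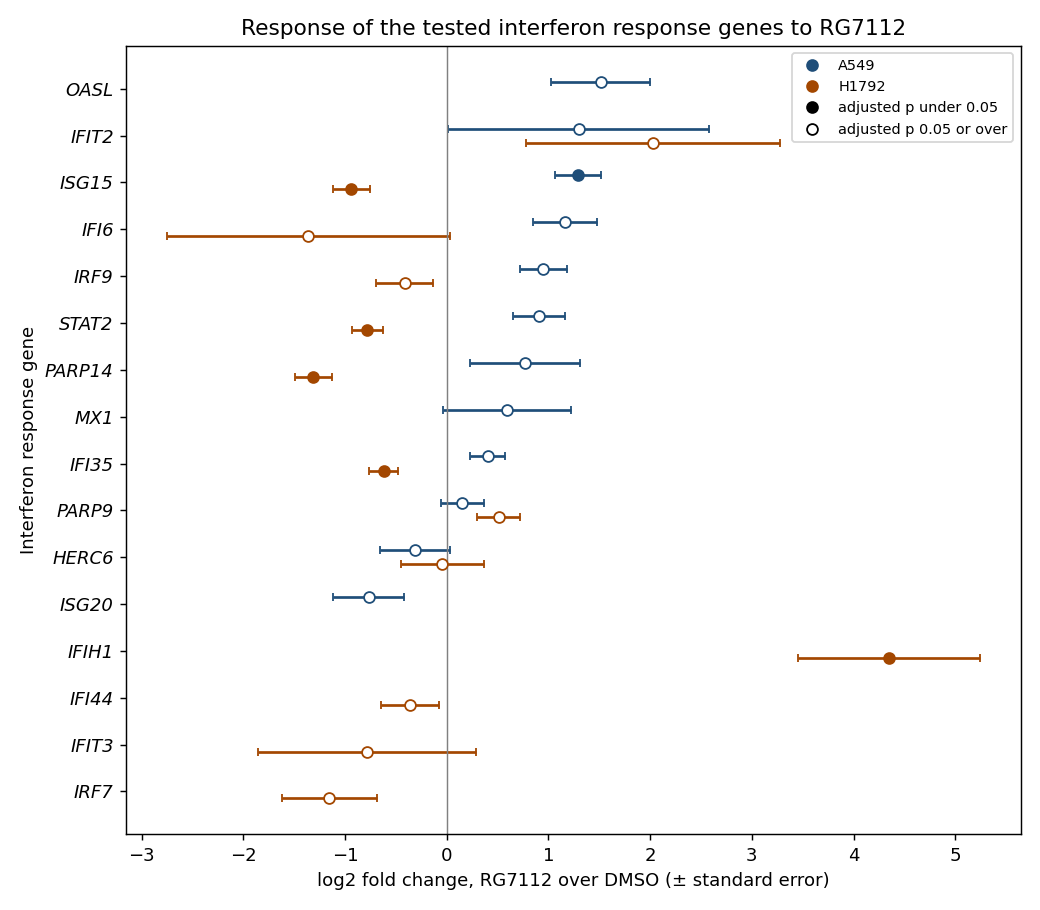
Response of each tested interferon response gene, as log2 fold change of RG7112 over DMSO with its standard error (3 samples per treatment), in A549 (blue) and H1792 (orange). Filled points had an adjusted p under 0.05, which held for ISG15 in A549 and for ISG15, STAT2, PARP14, IFI35 and IFIH1 in H1792.

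Among the regulators, STAT2 (chr12:56341597-56360155, the DNA-binding partner of IRF9 in ISGF3) had 45.8, 26 and 45.5 CPM in the A549 DMSO samples and 67.6, 83.2 and 69.4 CPM with RG7112. Its H1792 values were 30.9, 32.9 and 32.2 CPM with DMSO and 18.5, 18.5 and 16 CPM with RG7112. All treated A549 samples lay above their controls and all treated H1792 samples below theirs. The log2 fold change was 0.91 (SE 0.255) in A549, with an adjusted p of 0.0751 in edgeR, and -0.78 (SE 0.15, adjusted p = 0.0101) in H1792. The responses differed by 1.77 (SE 0.303, adjusted p = 0.00346 in the edgeR interaction). DESeq2 gave an adjusted p of 0.0174 for STAT2 in A549.

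IRF9 (chr14:24161053-24166565), the subunit through which ISGF3 recognises DNA, was at 15.3, 11.4 and 15.9 CPM with DMSO and 24.6, 28.1 and 29.5 CPM with RG7112 in A549. In H1792 it was at 6.33, 6.68 and 6.09 CPM, and at 4.89, 4.97 and 3.72 CPM with RG7112. After TMM normalisation the treatments were separate in both lines and in opposite directions, whereas by library size alone the H1792 treatments overlapped (5.36 to 5.71 CPM with DMSO and 4.2 to 5.54 with RG7112). The log2 fold change of 0.95 (SE 0.234) in A549 missed the threshold in edgeR with an adjusted p of 0.0526 and passed it in DESeq2 with 0.0176. In H1792 it was -0.41 (SE 0.282, adjusted p = 0.292 in edgeR), and -0.16 by library size alone (adjusted p = 0.696, edgeR). The difference between the responses was 1.44 (SE 0.322, adjusted p = 0.0112, edgeR interaction). The IRF9 row had the same count in all 12 samples as 1 other row, whose identifier is absent from GENCODE v29, and the gene overlaps AL136295.5 on the same strand, so that its level is uncertain.

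IRF7, a factor that amplifies interferon production, did not pass in the interaction (difference -0.19, SE 1.63, adjusted p = 0.962, edgeR). In A549 it had 1, 9 and 62 counts with DMSO and 2, 0 and 22 counts with RG7112, so that the replicates numbered 3 held most of its counts, and it was not tested there. The H1792 samples had 12.3, 17.5 and 15.2 CPM with DMSO and 11.3, 4.79 and 3.25 CPM with RG7112. The treated samples lay below the controls after TMM but not by library size alone (3.68 to 12 against 11.1 to 14.7 CPM), with a log2 fold change of -1.15 (SE 0.468) and an adjusted p of 0.1 in edgeR. Without H1792 RG7112 replicate 1, the adjusted p was 0.0118 in edgeR and the log2 fold change -1.81.

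Of the cytosolic RNA sensors, IFIH1 (chr2:162267079-162318703), which encodes MDA5 and recognises long double-stranded RNA, had few counts. In H1792 it had 0, 0 and 1 counts with DMSO and 11, 14 and 12 counts with RG7112. These make 0 to 0.435 CPM and 2.48 to 2.83 CPM, without overlap. The pooled counts of 37 and 1 gave a ratio of 25.4 after scaling, with a 95% counting interval of 4.28 to 1030 (exact binomial). In H1792, IFIH1 passed the low-count filter through its treated samples alone, the group in which it was high. The fitted log2 fold change was 4.35 (SE 0.896, adjusted p = 0.0126 in edgeR), and without H1792 DMSO replicate 2, RG7112 replicate 2 or RG7112 replicate 3 the adjusted p was 0.0555, 0.0513 and 0.0544 in edgeR. In A549, where IFIH1 was below the filter of the test, it had 7, 8 and 3 counts with DMSO and 13, 4 and 11 with RG7112. The responses differed by -3.57 (SE 1.1, adjusted p = 0.0412, edgeR interaction), and with a correction for GC content the adjusted p was 0.123. Leaving out any sample other than A549 or H1792 DMSO replicate 3 brought it to between 0.059 and 0.118. The sensor cofactor DDX60 had no counts.

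The IFIT family encodes proteins that bind viral RNA and block its translation. IFIT1 ranged from 0 to 3.52 CPM and was tested in neither line. IFIT2 had 0, 6 and 17 counts with DMSO and 24, 0 and 33 with RG7112 in A549, and 9, 0 and 0 against 5, 26 and 26 in H1792. IFIT3 had 11, 27 and 11 counts with DMSO and 25, 0 and 9 with RG7112 in H1792, and in A549 it was at 0 in 3 of 6 samples. Within a group, samples of IFIT2 and IFIT3 thus alternated between 0 and up to 33 counts, and none of their tests passed (adjusted p = 0.599 for IFIT2 in A549, and 0.252 and 0.602 for IFIT2 and IFIT3 in H1792, edgeR). All 3 genes overlap LIPA on the opposite strand, and members of this family have similar sequences between which estimated counts can be split.

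The OAS family makes or resembles enzymes that switch on the RNA-degrading RNase L. OAS2 and OAS3 stayed at or below 2.8 CPM in every sample. OASL, a catalytically inactive relative that enhances RNA sensing, was at 3.11, 1.53 and 4.72 CPM with DMSO and 6.8, 9.04 and 10.8 CPM with RG7112 in A549, without overlap. Its log2 fold change of 1.52 (SE 0.486) did not pass the test (adjusted p = 0.108, edgeR). In H1792 it had 0 to 0.887 CPM.

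ISG15 (chr1:1001138-1014540), a ubiquitin-like protein that is conjugated to other proteins during the interferon response, showed the clearest contrast. In A549 it had 15.3, 16 and 21.1 CPM with DMSO and 36.6, 46.1 and 45.8 CPM with RG7112. H1792 samples were at 97.4, 115 and 140 CPM with DMSO and 70.3, 54.5 and 49.9 CPM with RG7112. Every treated A549 sample exceeded every control, and every treated H1792 sample lay below every control. The mean rose from 17.5 ± 3.19 to 42.9 ± 5.38 CPM in A549 and fell from 117 ± 21.5 to 58.2 ± 10.7 CPM in H1792 (SD, n = 3). The log2 fold change was 1.29 (SE 0.227, adjusted p = 0.0163) in A549 and -0.94 (SE 0.184, adjusted p = 0.011) in H1792, both in edgeR. The responses differed by 2.30 (SE 0.285, adjusted p = 0.000539, edgeR interaction). Without A549 DMSO replicate 1, DMSO replicate 2 or RG7112 replicate 2, the adjusted p in A549 was 0.0785, 0.0866 and 0.0663 in edgeR.

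GC content moved with these responses. Across genes, the log2 fold change correlated with GC content at a Spearman rho of 0.255 in A549 (9941 genes) and -0.472 in H1792 (9165 genes). The transcript of ISG15 has a GC content of 64%, that of IFI35 58%, and those of PARP14 and IFIH1 42.8% and 41.7%, beside a median of 50.2% and 49.4% over the genes tested in A549 and H1792. After a loess correction for GC content, ISG15 in H1792 was at -0.43 on the log2 scale (adjusted p = 0.0803, edgeR) and IFI35 at -0.37 (adjusted p = 0.101, edgeR), so that neither passed. The difference of ISG15 between the lines was then 1.49 (adjusted p = 0.00353, edgeR) and that of STAT2 1.72 (adjusted p = 0.00517, edgeR). Differences for IRF9 (1.09, adjusted p = 0.037), IFI35 (0.61, adjusted p = 0.0404) and PARP14 (2.84, adjusted p = 0.0245) still passed the edgeR test, and that of IFIH1 did not. ISG15 overlaps an antisense gene, AL645608.1.

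**Figure D3:**
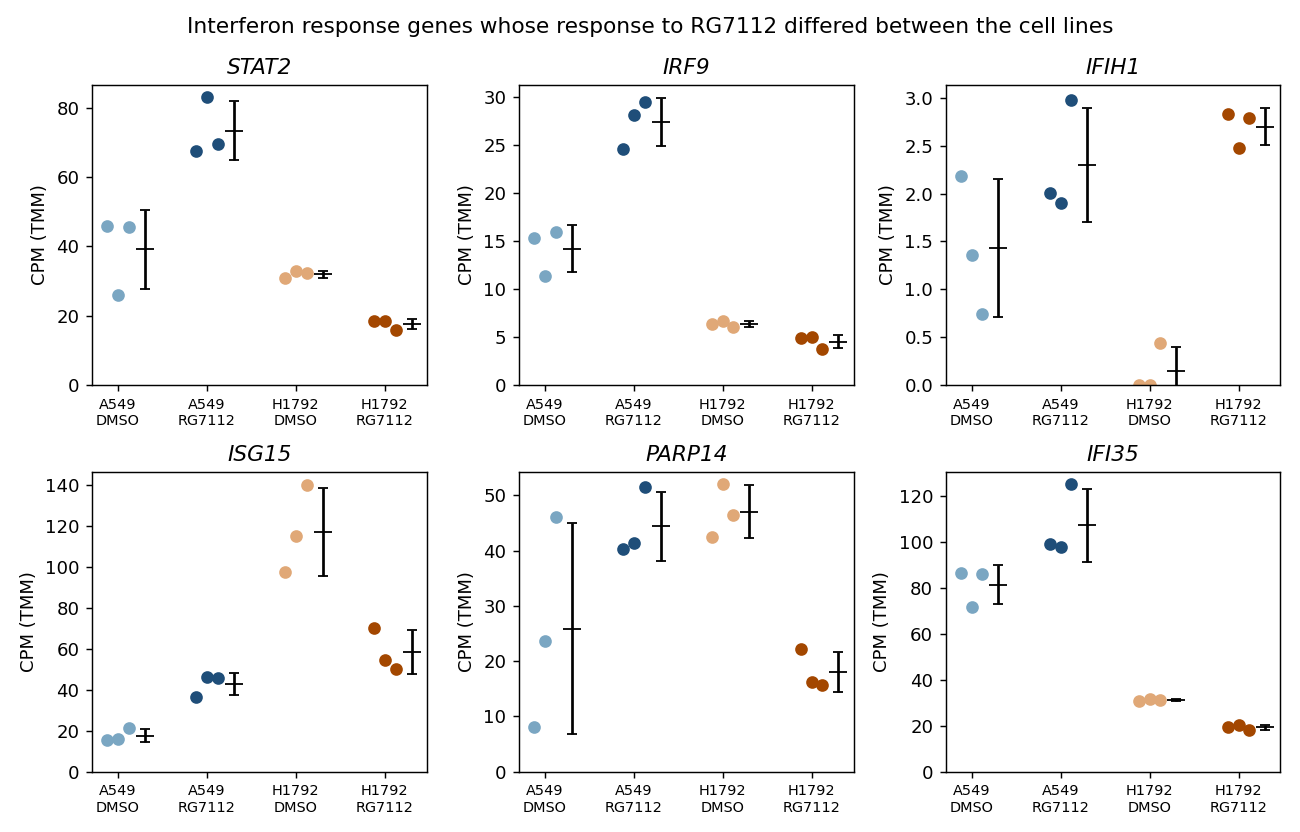
Level of the 6 interferon response genes whose response differed between the lines, in CPM (vertical axis, linear from 0), with 1 point per sample and the mean ± SD of 3 samples as a bar, in the 4 groups. STAT2, IRF9, ISG15 and IFI35 sit higher with RG7112 in A549 and lower in H1792 without overlap (for IRF9 in H1792 after TMM but not by library size alone), PARP14 is lower in H1792, and IFIH1 is higher in H1792.

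HERC5 and HERC6 belong to the family of ligases that, in the case of HERC5, attach ISG15 to its targets. HERC5 had at most 2 counts in a sample. HERC6 was at 16.5, 14 and 11.4 CPM with DMSO and 14.7, 11.9 and 7.05 CPM with RG7112 in A549, and at 2.76 to 6.53 and 3.86 to 4.79 CPM in H1792. Its treatments overlapped in both lines, with log2 fold changes of -0.31 (SE 0.343) and -0.04 (SE 0.412).

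Among the antiviral effectors, the dynamin-like GTPase MX1 had 1.87 to 2.8 CPM with DMSO and 1.7 to 7.05 CPM with RG7112 in A549. In H1792 it had 7.73, 13.6 and 2.18 CPM, and 2.32, 1.95 and 1.39 CPM with RG7112. The difference between its responses was 2.66 (SE 0.952) and did not pass (adjusted p = 0.0692, edgeR interaction). Its relative MX2, at 0.311 to 2.46 CPM, was not tested. In H1792, MX2 had 2.46, 2.3 and 2.18 CPM with DMSO and 1.03, 0.71 and 0.697 CPM with RG7112. The exonuclease ISG20 went against the other separated genes in A549, with 10.9, 11.6 and 12.7 CPM with DMSO and 4.33, 8.56 and 8.13 CPM with RG7112. Its log2 fold change was -0.77 (SE 0.351, adjusted p = 0.244 in edgeR). RSAD2 (viperin), CMPK2, BST2 (tetherin), SAMD9 and SAMD9L did not exceed 3.48 CPM in any sample. In H1792, SAMD9L had 1.76, 0.921 and 0.87 CPM with DMSO and 2.32, 2.66 and 3.48 CPM with RG7112.

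PARP14 (chr3:122680618-122730840), an ADP-ribosyltransferase, had 42.5, 52 and 46.5 CPM with DMSO and 22.2, 16.3 and 15.6 CPM with RG7112 in H1792. The groups were well separated and the mean fell from 47 ± 4.77 to 18 ± 3.61 CPM (SD, n = 3). The log2 fold change was -1.31 (SE 0.183, adjusted p = 0.00448, edgeR), and its adjusted p stayed at or below 0.0458 under each of the 15 alternative settings. In A549 the DMSO samples were spread from 8.1 through 23.7 to 46 CPM, and the treated samples, at 40.2, 41.4 and 51.5 CPM, overlapped them. The fold change there was 0.77 (SE 0.537, adjusted p = 0.449, edgeR). The difference between the lines was 2.16 (SE 0.629, adjusted p = 0.0335, edgeR interaction), and it no longer passed without A549 DMSO replicate 2, A549 RG7112 replicate 3, any H1792 DMSO replicate, or H1792 RG7112 replicates 2 or 3 (adjusted p = 0.0508 to 0.0803, edgeR). PARP9, a partner of PARP14, passed the test in neither line. It had 22.5, 27.2 and 17.8 CPM with DMSO and 27.6, 27.7 and 36.5 CPM with RG7112 in H1792 (log2 fold change 0.51, SE 0.21, adjusted p = 0.103, edgeR), the opposite sign to PARP14. The gene overlaps DTX3L on the opposite strand.

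IFI35 (chr17:43006725-43014456), an interferon-induced protein with a leucine zipper, had 86.3, 71.7 and 86 CPM with DMSO and 98.9, 97.5 and 125 CPM with RG7112 in A549. H1792 samples were at 30.6, 31.8 and 31.3 CPM and 19.3, 20.4 and 18.1 CPM. The treatments did not overlap in either line. Log2 fold changes were 0.40 (SE 0.168, adjusted p = 0.203, edgeR) and -0.62 (SE 0.145, adjusted p = 0.0188, edgeR), and they differed by 1.10 (SE 0.203, adjusted p = 0.00495, edgeR interaction). Without replicate 2 or 3 of either H1792 treatment, the adjusted p in H1792 was 0.053 to 0.0671 in edgeR, and by library size alone it was 0.105.

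IFI6, a small mitochondrial protein with antiapoptotic activity, had 8.1, 7.15 and 9.19 CPM with DMSO and 17.5, 12.8 and 24.1 CPM with RG7112 in A549, with a log2 fold change of 1.16 (SE 0.311, adjusted p = 0.0659 in edgeR and 0.0336 in DESeq2). In H1792 its counts were 12, 27 and 19 with DMSO and 28, 0 and 0 with RG7112, so that 1 treated sample exceeded every control while the others had none. IFI44 had 0 to 0.745 CPM in A549, and 12.3, 10.8 and 9.57 CPM with DMSO and 7.21, 6.57 and 10.5 CPM with RG7112 in H1792, where the treatments overlapped. IFI27, IFI44L and XAF1 did not exceed 2.83 CPM.

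The lines were also compared at baseline, with DMSO in both. Of 13 genes tested, 4 were called higher in A549 and 2 lower (edgeR, adjusted over 10330 genes, of which 20.6% were called higher and 14.8% lower). ISG20 (2.36, SE 0.297, adjusted p = 0.000863), HERC6 (1.63, SE 0.392, adjusted p = 0.0128), IFI35 (1.42, SE 0.139, adjusted p = 0.000289) and IRF9 (1.19, SE 0.262, adjusted p = 0.00884) were higher in A549 on the log2 scale in edgeR. ISG15 was lower in A549, by -2.70 on the log2 scale (SE 0.204, adjusted p = 0.000103, edgeR), the opposite of IRF9 and IFI35. IFI44 had 3 counts in A549 and 104 in H1792 over 3 samples each, a ratio of 47.9 after scaling with a 95% counting interval of 15.9 to 236 (adjusted p = 0.0024, edgeR). STAT2 differed by 0.33 (SE 0.243, adjusted p = 0.302, edgeR) and PARP14 by -0.82 (SE 0.523, adjusted p = 0.235, edgeR). IRF7 varied from 0.311 to 15.4 CPM among the A549 controls and differed by -1.36 (SE 1.02, adjusted p = 0.308, edgeR). After RG7112, ISG15 levels of the lines lay closer together, at 42.9 ± 5.38 CPM in A549 and 58.2 ± 10.7 CPM in H1792, whereas those of STAT2 lay further apart, at 73.4 ± 8.57 and 17.7 ± 1.43 CPM.

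Other genes of the pathway were taken from a list of 37 ligands, receptors, kinases, sensors and regulators, of which 31 had a row. Of the interferon ligands, IFNE had at most 1.08 CPM and IFNL3 no count, and IFNA1, IFNB1, IFNK, IFNL1 and IFNL2 were not analysed here. In A549 none of 18 tested pathway genes was called (3.18% of all genes were called higher and 3.01% lower), with 4 at an unadjusted p under 0.05, and DESeq2 called 1. IRF1, a transcription factor induced by interferon gamma, rose without reaching the fold change threshold, from 60.7, 71 and 68.3 to 95.2, 102 and 114 CPM (log2 0.64, SE 0.152, adjusted p = 0.0473, edgeR). In H1792, 2 of 16 were called, 1 in each direction, against 10.3% of all genes higher and 4.34% lower. The DNA sensor CGAS had no count with DMSO and 4.12, 16.3 and 15.6 CPM with RG7112, at least 40-fold higher against a floor of 3 counts over the group. Its adaptor STING1 fell from 76.3, 77.1 and 80.5 to 41.2, 33 and 36.2 CPM (log2 -1.01, SE 0.126, adjusted p = 0.00378, edgeR). CGAS counts varied widely among A549 replicates, at 6, 59 and 0 with DMSO and 23, 12 and 9 with RG7112. In the interaction, 3 of 20 pathway genes were higher in A549 (IRF1, IRF5 and STING1) and 1 lower (CGAS), against 10.4% and 11.4% of all genes.

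At baseline, 4 of 15 pathway genes tested were called higher in A549, among them IRF5 (log2 2.77), IFNGR1 (3.25) and the phosphatase gene PTPN6 (7.98), and STING1 was called lower (-3.42), against 20.6% and 14.8% of all genes. The ratio of PTPN6 was 265 with a 95% counting interval of 90.6 to 1290. Some transcripts that signalling needs were listed at or near 0. JAK1 ranged from 0 to 2.85 CPM over the 12 samples, and the adaptor MAVS was at 0 in 5 of 6 H1792 samples and in 1 A549 sample while the other A549 samples had 5.1 to 24.1 CPM.

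A second list held 47 other interferon-induced genes, 42 of them with a row. In A549, 4 of 28 tested were called upregulated and none downregulated, against 3.18% and 3.01% of all genes (1 was lower at an unadjusted p under 0.05 in edgeR, and DESeq2 called none). The antiviral ligase TRIM22 rose from 3.74, 5.79 and 3.73 to 40.7, 38.5 and 20.1 CPM (log2 2.88, SE 0.376, adjusted p = 0.0057, edgeR). APOL1 (1.66, adjusted p = 0.0124), SHFL (1.25, adjusted p = 0.0214) and the DNA sensor IFI16 (1.21, adjusted p = 0.0124) were the others in edgeR. In H1792, 3 of 26 were called upregulated and none downregulated, against 10.3% and 4.34% of all genes (4 were lower at an unadjusted p under 0.05 in edgeR, and DESeq2 called none). The upregulated genes were the RNA-editing enzyme ADAR (log2 1.20, adjusted p = 0.00448), the scramblase PLSCR1 (1.01, adjusted p = 0.00634) and the antiviral zinc finger protein ZC3HAV1 (1.39, adjusted p = 0.0236, all edgeR). Of 31 genes in the interaction, 5 were higher in A549 (PML, IFI16, LGALS3BP, APOL1 and PARP12) and 2 lower (PLSCR1 and ADAR), against 10.4% and 11.4% of all genes. At baseline, 8 of 27 were called higher in A549, among them RNF213 (log2 2.17), and 5 lower, among them IFI16 (-2.87), PML (-2.14) and PARP12 (-1.19), against 20.6% and 14.8% of all genes.

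The positive difference between the responses was seen in each fit for 5 of the genes. Over all alternative settings, the difference for ISG15 ranged from 1.48 to 2.45 and that for STAT2 from 1.38 to 1.93, and both passed in 21 of 21 settings. The difference for IRF9 passed in 20 of 21 settings, as did that for IFI35, and that for PARP14 in 14 of 21. The difference for IFIH1 passed in 6 of 20.

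**Figure D4:**
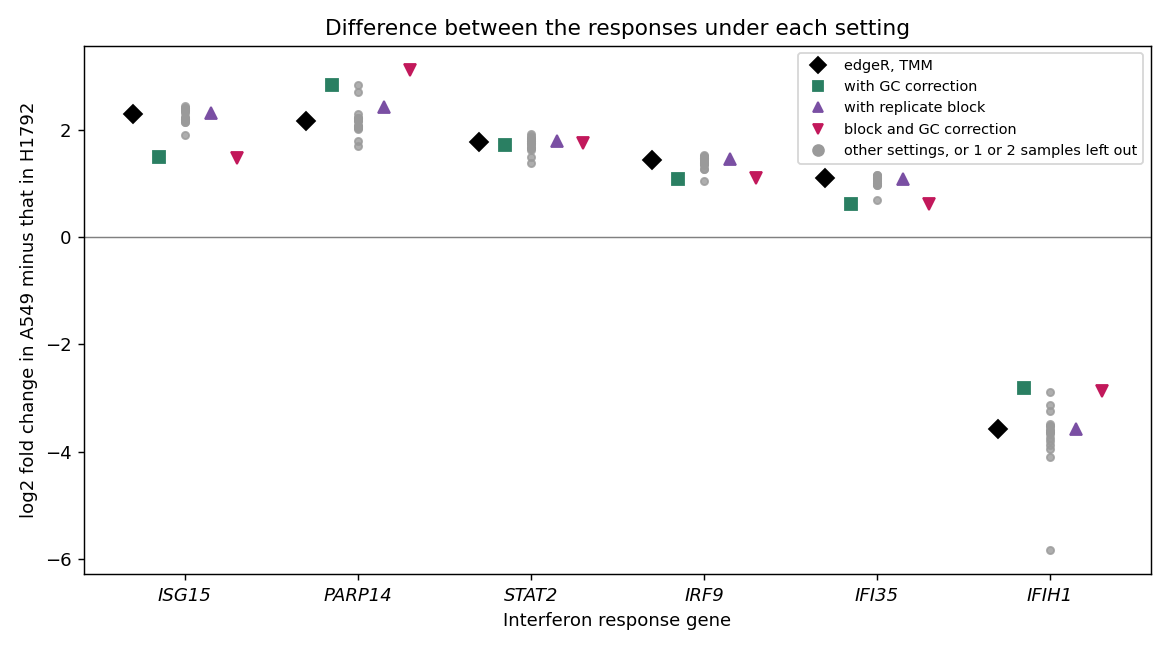
Difference between the responses (A549 log2 fold change less the H1792 one, vertical axis) for the 6 genes under each processing setting, 1 point per setting. ISG15, PARP14, STAT2, IRF9 and IFI35 stay above 0 and IFIH1 below 0 in every setting shown.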

How the data were processed

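Poly-A RNA was sequenced from both ends. The labels give reads of 38 bp, the study's methods a greater length. The authors estimated transcript abundance with kallisto 0.45.0 on Ensembl GRCh38.95 and summed it to genes; the deposited values are these estimated counts, as whole numbers without normalization. Library preparation was directional, and whether counting used strand is not given in the sources used here. Genes were matched by identifier to GENCODE v29 (18011 of 20595 rows).

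With R 4.3.3 and edgeR 4.0.16, low genes were removed with filterByExpr (count minimum 10, total 15), libraries were normalized by TMM and genes were tested by quasi-likelihood within each line, over 12 samples for the interaction, and over the DMSO samples at baseline. A gene could pass the filter through a single group, as IFIH1 and CGAS did in H1792, and IFI44 and PTPN6 at baseline. Biological coefficients of variation were 0.345 (A549) and 0.27 (H1792). Replicates differed by 5.12 to 23.3 times counting noise (chi-square per degree of freedom). Fits were tested on simulated data, in which the interaction recovered fewer of the changed genes than the fits within a line.

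Genes named with sample values were those called, those passing without overlap, and STAT2, IRF9, IRF7 and ISG15; OASL, IFI6, MX1 and the other genes given by sample were chosen after their values were seen. Listed pathway genes were named if called, at most 8 per fit, with JAK1, MAVS and the ligands added afterwards. The genes and lists were chosen with earlier results of these data known. Alternatives were DESeq2 1.42.0, RLE factors, library size, other filters, all 12 samples in one fit, a replicate block, a GC correction (loess, span 0.5), other thresholds and leaving out samples. Some listed genes are not reported here.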

Additional observations from a re-analysis of the deposited data

Results flagged for a closer look

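The responses of A549 and H1792 to RG7112 differed for 6 interferon response genes, by an interaction test over all 12 samples (edgeR quasi-likelihood, adjusted over 11666 genes). The A549 log2 fold change less the H1792 one was 2.30 for ISG15, 2.16 for PARP14, 1.77 for STAT2, 1.44 for IRF9, 1.10 for IFI35 and -3.57 for IFIH1. The log2 fold changes correlated with GC content in opposite directions in the lines, and the part of GC content in these differences was examined only through the corrected fits.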

How the results depend on the processing

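The calls within each line rest on few genes near the thresholds. Among the listed genes in A549, 2 were called higher with DESeq2 and with at least 10 counts in every sample, and 0 with the replicate block and GC correction together. Pathway genes called in A549 were 1 with DESeq2, the block, the GC correction, both together, no fold change threshold, or without replicate 3 of both A549 treatments (chosen after seeing the data), and other induced genes were 7 without the fold threshold. In H1792, 0 were called higher with at least 10 counts in every sample, with the block, and with block and GC correction, while those called lower numbered 3 with all 12 samples, 2 with GC correction and 4 without the fold threshold. Pathway genes called there were 1 by library size, without a filter, with GC correction and with block and GC correction, 0 with at least 10 counts, and 6 without the fold threshold, and other induced genes were 1 with all 12 samples and 10 without the fold threshold. For the difference between the responses, 0 genes were lower without a filter, with at least 10 counts, with the block, with GC correction, and with both, and 3 were higher with both. Pathway genes were 2 without a filter and with GC correction, and 1 with both. At baseline, 1 was called lower with at least 10 counts in every sample, and 8 pathway genes were called without the fold threshold. STAT2 at baseline turned to -0.004166 with block and GC correction, close to no difference. With fewer genes tested, at least 10 counts removed IFIH1 and IFI44. The cause of the other changes was not tested.

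With each sample left out in turn, the listed genes called in A549 ranged from 0 to 1 higher, with 0 without DMSO replicate 1, DMSO replicate 2 or RG7112 replicate 2, pathway genes from 0 to 1 (1 without RG7112 replicate 3) and other induced genes from 1 to 5. In H1792 they ranged from 0 to 2 higher and 1 to 4 lower (4 without RG7112 replicate 1), and other induced genes from 1 to 4. In the interaction the lower count ranged from 0 to 1 and pathway genes from 1 to 6. At baseline the lower count ranged from 2 to 4 (4 without A549 DMSO replicate 3). The difference of IRF7 turned from -0.19 to between -3.29 and 2.27, and was positive without A549 DMSO replicate 3, A549 RG7112 replicates 1 or 2, or H1792 RG7112 replicate 1.

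The main fits did not pair the samples by replicate number. To check pairing, the mean of each treatment was subtracted gene by gene from log2 CPM. The remaining deviations of same-numbered DMSO and RG7112 samples correlated at 0.163, 0.075 and 0.317 in A549. In H1792 they correlated at -0.0507, -0.0273 and -0.00153. Between numbers 1 and 2 of A549 the values were 0.161 and 0.12, and between number 3 and the others -0.257 to -0.152. The number 3 samples of A549 thus went together, which the main A549 fit did not take into account, and the source of this was not tested. With the replicate block, ISG15 alone was still called in A549, IFIH1, STAT2 and IFI35 in H1792 no longer passed (adjusted p = 0.0573, 0.0527 and 0.0789, edgeR), and in the interaction 5 genes were higher while IFIH1 did not pass (adjusted p = 0.106, edgeR).

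Library size alone moved the median of all genes to 0.269 in H1792, 0.292 at baseline and -0.372 in the interaction, and changed the share of calls that were higher from 70.3% to 86.1% in H1792, from 58.1% to 68.8% at baseline and from 47.7% to 23% in the interaction. The GC correction gave 54.6% in H1792 and 45.4% at baseline. For the 12 undetected genes, absence and a low level cannot be told apart at this depth in samples without a count.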
